A study of Drosophila melanogaster with 59 samples.

Results

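The genes takeout (to), fit, Lsp2, apolpp, Tsf1 and Fbp1 encode proteins that the fat body makes, most of them for release into the hemolymph, the circulating fluid of the fly. The 6 genes were taken by name as a list of head fat body products and hemolymph carriers, with earlier results of these data known, and all 6 were found among the 17558 genes listed for long RNA. They were followed in 16 libraries of Drosophila melanogaster: 8 of heads of adult males aged 4 days and 8 of unfertilized eggs, with 2 libraries for each of 4 lines. All 4 lines carry w1118, a mutation of the eye color gene white, and are described as Oregon-R in background. The line written here as w1118 carries no insertion, Fab2L carries a transgenic insertion of that name, and White* and Red* are lines with the Fab2L insertion that are told apart by their eye color names. Long RNA (above 200 nt) was sequenced after removal of ribosomal RNA and without selection for poly(A). The labels do not say whether the 2 libraries of a line were grown apart, so a p-value reflects the spread of these libraries alone and part of it may be technical. For the egg libraries, male heads are also mentioned in the extraction protocol, and their titles and source were followed.

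The fat body of the fly combines storage, intermediary metabolism and secretion, much as liver and adipose tissue do in vertebrates, and a layer of it surrounds the brain inside the head capsule. takeout encodes a secreted protein of the juvenile hormone binding family that is made in head fat body, more in males than in females, is known to act on feeding and male courtship, and cycles under the circadian clock. fit (female-specific independent of transformer) encodes a small secreted protein of the fat body around the brain, more abundant in females, that has been described as a satiety signal after protein feeding. Lsp2 encodes a hexamerin, a storage protein that also circulates in adults. Fbp1 encodes a fat body protein known from larvae as a receptor for the uptake of hexamerins. apolpp encodes the apolipophorins, the protein scaffold of the main lipoprotein of the hemolymph, and Tsf1 encodes a transferrin that carries iron between tissues.

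On the dm6 build, to lies at chr3R:25240180-25241668, fit at chr3R:21883924-21884454, Lsp2 at chr3L:12129393-12131869, apolpp at chr4:1060969-1077273, Tsf1 at chrX:18387084-18390344 and Fbp1 at chr3L:14094589-14098053. These are the spans of whole genes, from the RefSeq gene table of the same release. 3 of the 6 overlap another annotated gene, and it is not stated whether the authors' counting used strand. fit overlaps CG31465 and asRNA:CR45046, which were at 0 in all 8 head libraries. Lsp2 overlaps asRNA:CR11538, which had 0 or 1 read in each head library. apolpp overlaps Zyx, which had 84.5 to 109 FPKM in heads and 22.2 to 34.9 in eggs. In every egg library Zyx had more reads (1798 to 2527) than apolpp (286 to 1433). The part of Zyx reads in the values of apolpp was not tested.

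FPKM, which scales reads by gene length and library depth, could be worked back to whole reads, which gave a depth of 13491839 to 36603385 reads per library in heads and 27823551 to 35638108 in eggs. In heads the depth split by line, with 13491839 to 16048826 reads in Fab2L and White* and 25175556 to 36603385 in w1118 and Red*, so that outside White* against Fab2L and Red* against w1118 the line and the depth cannot be told apart. Photoreceptor markers summed to 16968 to 22796 FPKM in the head libraries, and maternal germline markers to 1016 to 1103 FPKM in the egg libraries. Both w1118 head libraries stood apart from the rest, in different genes. The yolk protein genes Yp1, Yp2 and Yp3 were at 110.2, 252 and 263 FPKM in w1118 replicate 1, against at most 5.69 FPKM for Yp1 and Yp2 and 16 for Yp3 in the other 7. The clock genes tim and Clk were at 176 and 2.66 FPKM in w1118 replicate 2, against 38.9 to 55.6 and 10.9 to 14.4 in the other 7. Midgut markers summed to 19.3 and 105 FPKM in w1118, to 33.2 and 0.895 in Red*, and to at most 1.29 in Fab2L and White*. Muscle markers summed to 1143 and 1497 FPKM in w1118 and to 709.8 to 976 in the other 6 head libraries. Of the 6 muscle markers, 5 were called lower than w1118 in Fab2L, 2 in White* and 1 in Red*. Over all tested genes, 3.12%, 3.10% and 8.07% were called lower. The hemocyte marker Sr-CI was called lower than w1118 in Fab2L (log2 difference -0.68, adjusted p = 0.0496, limma) and White* (-0.78, adjusted p = 0.0319). Both calls were lost without w1118 replicate 1 (-0.43 and -0.54). By limma-voom, 0 hemocyte markers were called in Fab2L and 1 was lower in White*. Glia markers (732 to 963 FPKM) and hemocyte markers (65.2 to 97.7) covered overlapping ranges in w1118 and in the other lines. Neuron markers summed to 377 and 443 FPKM in w1118 and to 393 and 461 in Red*. All of these lay above the 341 to 358 FPKM of the 4 libraries of Fab2L and White*. Rdl, 1 of the 7 neuron markers, was called higher in Red* than in White* (log2 difference 0.83, adjusted p = 0.0441, limma). The part of neuron RNA in the results of Red* was not tested. The part of gut, muscle, ovary, clock and neuron RNA in the results against w1118 was not tested beyond the values without either w1118 library given with the genes.

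In heads, 5 of the 6 genes passed the filter of more than 1 FPKM in at least 2 libraries and were tested, and Fbp1 did not. Differences between lines were tested with limma on log2(FPKM + 1) over all 11119 genes that passed, and a Benjamini-Hochberg adjusted p below 0.05 is called here. By the F test over the 4 lines, 4 of the 5 differed among lines (to, fit, Lsp2 and Tsf1) and apolpp was not called, where 10.1% of all tested genes were called. Against w1118, 2 of the 5 were lower in Fab2L (to and Lsp2), where 3.12% of all genes were called lower and 3.51% higher. In White*, 3 were lower (to, Lsp2 and fit), where 3.10% of all genes were called lower and 2.57% higher. In Red*, 4 were lower (to, Lsp2, fit and Tsf1), where 8.07% of all genes were called lower and 3.75% higher. The 4 stayed called with the 20 most abundant RNAs removed and the rest rescaled, where the balance over all genes turned to 1154 higher and 632 lower, from 417 higher and 897 lower. It was 111 and 276 without w1118 replicate 2 and 114 and 274 without Red* replicate 1. None of the 5 was called higher in these comparisons, which share the 2 w1118 libraries. Between White* and Fab2L, 0 of the 5 were called at the adjusted p, where 0.0270% of all genes were called lower and 0.0899% higher, and limma-voom on whole reads also called 0. At an unadjusted p below 0.05, fit, Lsp2 and apolpp passed there as lower. Of all 11119 genes, 366 passed that p as higher and 524 as lower. Red* had fit lower than Fab2L, where 1.87% of all genes were called lower and 0.378% higher (42 higher and 208 lower, 75 and 84 with the 20 most abundant RNAs removed, and 6 and 36 or 9 and 27 without Fab2L replicate 1 or 2). Red* had Tsf1 lower than White*, where 3.02% of all genes were called lower and 0.845% higher. That background of 94 higher and 336 lower was 154 and 204 with the 20 most abundant RNAs removed, and depended on single libraries: leaving out White* replicate 1 gave 6 and 16, White* replicate 2 gave 7 and 19, Red* replicate 1 gave 6 and 19, and either Fab2L library gave 29 and 102 to 105. In bulk RNA of whole heads, fewer fat body cells and less RNA per cell cannot be told apart.

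**Figure D1:**
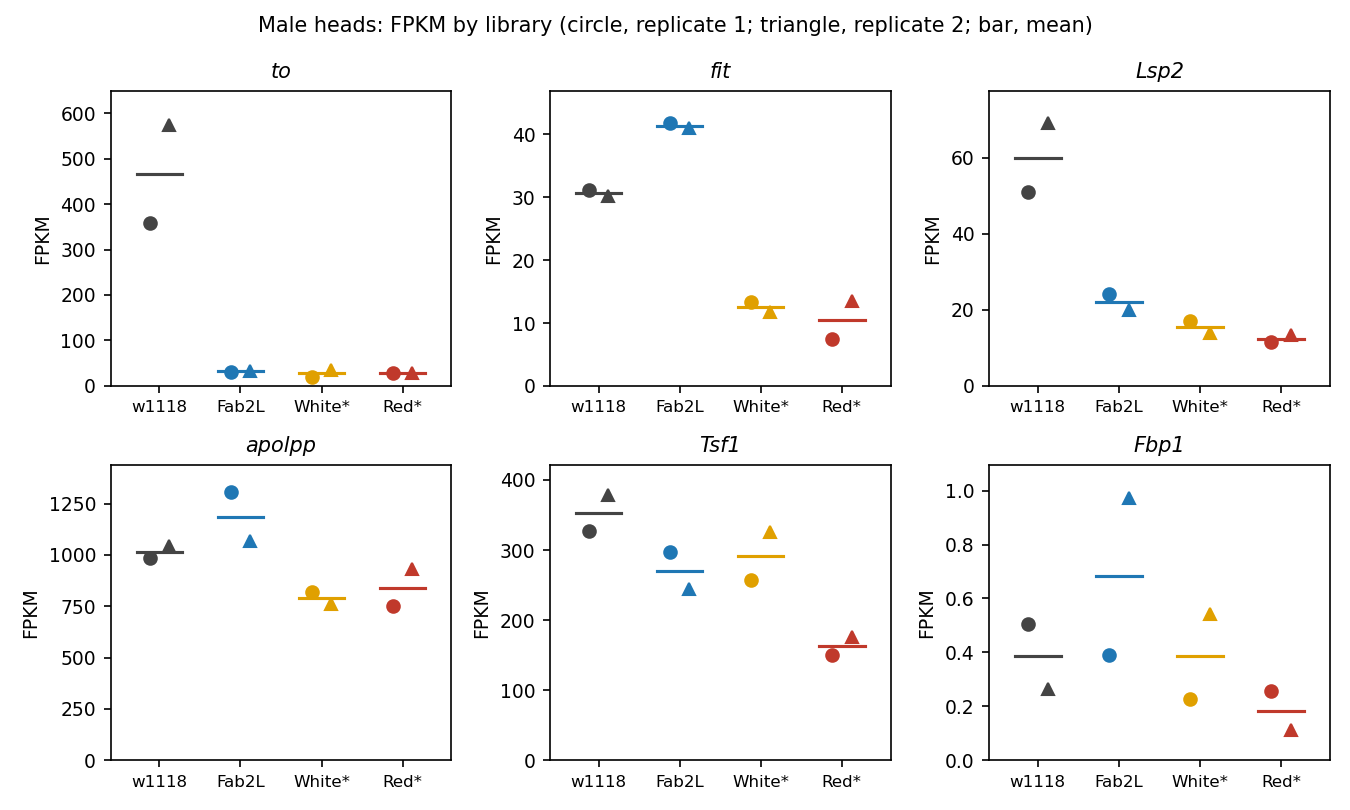
FPKM of the 6 genes in the 8 head libraries, 1 panel a gene, with an axis from 0 and the lines along the bottom (circle, replicate 1; triangle, replicate 2; bar, mean of 2). to is at 358 and 574 FPKM in w1118 and at 20.6 to 35.4 in the other 6 libraries, Lsp2 is highest in w1118, fit is lower in White* and Red*, and Tsf1 is lowest in Red*.

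takeout showed the largest difference between lines among the 5 tested genes. Its level was 358 and 574 FPKM in w1118 (13815 and 18798 reads), 31.5 and 33.0 in Fab2L, 20.6 and 35.4 in White*, and 28.6 in each Red* library. Both w1118 libraries lay above the other 6, and the 3 lines with the insertion lay in 1 range. The w1118 mean was 14.5-fold the Fab2L mean, 16.7-fold the White* mean and 16.3-fold the Red* mean. The log2 difference from w1118 was -3.77 in Fab2L (SE 0.27, adjusted p = 0.000406, limma), -4.02 in White* (adjusted p = 0.000318) and -3.94 in Red* (adjusted p = 0.000301). Among the 3 lines with the insertion the log2 differences were -0.25 to 0.08, and none was called.

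The 2 w1118 libraries differed from each other in to, and the clock and yolk protein genes differed between them as well. Without w1118 replicate 1, the library with high yolk protein RNA, the log2 differences of to from w1118 were -4.11 in Fab2L, -4.36 in White* and -4.28 in Red*. Without w1118 replicate 2, the library with high tim, they were -3.43, -3.68 and -3.60, and the largest adjusted p of these 6 was 0.00191. The 1 w1118 library left in each of these fits is assumed to vary like the other lines, as in all later values with a library left out. In w1118 replicate 1, to was at 358 FPKM while tim (49.9 FPKM), per (9.85) and vri (33.1) lay within the range of the 6 libraries with the insertion. In the same library Clk (10.9) lay below their 13.2 to 14.4, cry (134) above their 87.4 to 124 and cwo (21.5) above their 18.5 to 21. Of the 8 clock genes, only cyc was called, and it was higher in each of the 3 lines (28.3 and 28.3 FPKM in w1118 and 35.1 to 36.9 in the other 6). Over all tested genes, 3.51%, 2.57% and 3.75% were called higher in Fab2L, White* and Red*. The median log2 difference of the 8 from w1118 was -0.35, -0.37 and -0.32 in these lines. When w1118 replicate 1 was left out, it was -0.72, -0.76 and -0.66, and Clk differed by 2.00, 1.98 and 2.04. In that fit cyc lost its calls, with differences of 0.33, 0.34 and 0.33 as with all libraries.

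The gene that follows to on the chromosome shared its pattern. CG11854, a gene of the same protein family, lies at chr3R:25242020-25243262. It stood at 12.1 and 22 FPKM in w1118 and at 0.290 to 0.703 FPKM in the other 6 libraries (4 to 19 reads each), with no overlap. Its log2 differences from w1118 were -3.69 in Fab2L (adjusted p = 0.000406, limma), -3.62 in White* and -3.51 in Red* (adjusted p = 0.000463). CG11854 passed the filter only through the 2 w1118 libraries, where it was high. With no filter, over 16067 genes, the 3 differences were also called (adjusted p up to 0.00177). The family gene on the other side, Jhbp7 (chr3R:25237614-25238895), was at 9.50 and 8.72 FPKM in w1118 and at 8.09 to 10.4 FPKM in the rest, overlapping in range.

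**Figure D2:**
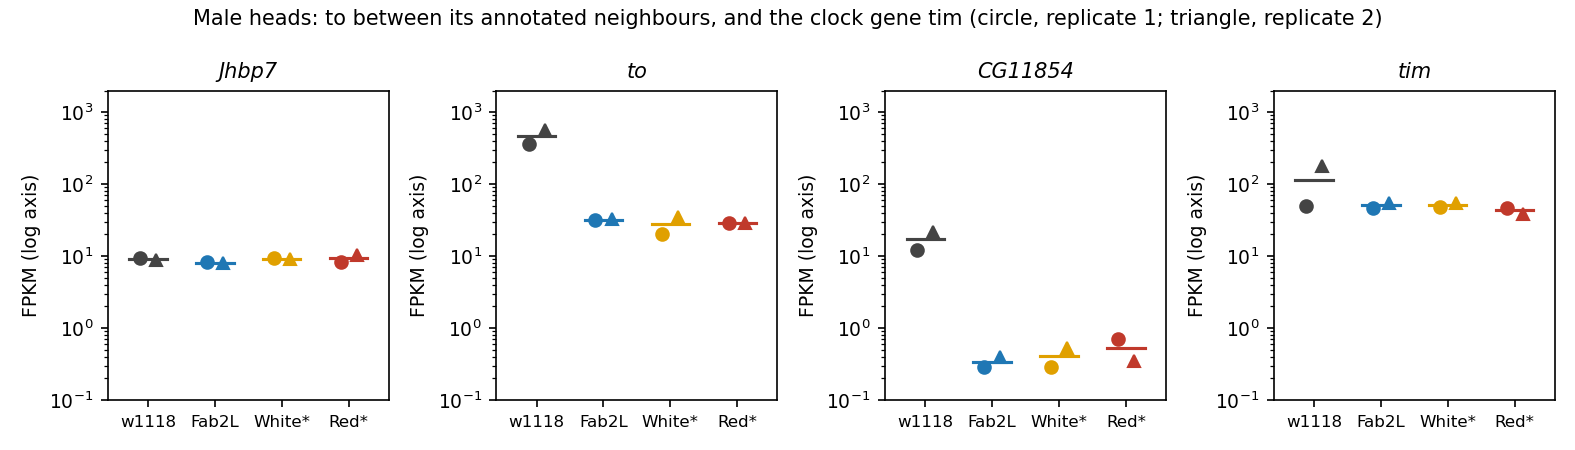
FPKM in the 8 head libraries of Jhbp7, to and CG11854, in their order on the chromosome, and of the clock gene tim, on 1 shared log axis (circle, replicate 1; triangle, replicate 2; bar, mean of 2). to and CG11854 are high in both w1118 libraries, Jhbp7 is at 8.09 to 10.4 FPKM throughout, and tim is high in w1118 replicate 2 only.

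Of the 18 genes of the takeout family, most of which are named for juvenile hormone binding or by number, 15 were tested in heads. Against w1118, 3 were lower in Fab2L (to, CG11854 and Jhbp11), 6 in White* and 6 in Red*, and 0 were higher. Of all tested genes, 3.12%, 3.10% and 8.07% were called lower in these lines. CG11854 is among the lower genes of each line and was tested only through w1118, where it was high. Jhbp11 fell from 41.5 and 40.2 FPKM in w1118 to 24.1 and 24.3 in Fab2L, 19.3 and 22.5 in White* and 22.5 and 21.5 in Red*. Jhbp3 was lower in White* (70.2 ± 1.31 against 124 ± 5.08 FPKM, mean ± SD with n = 2, as in later means; log2 difference -0.81) and in Red* (-0.59), as was Jhbp5 (-0.97 and -0.81). Jhbp12 was also lower in White* (-0.45) and dyw in Red* (-0.63). The median log2 difference of the 15 was -0.14, -0.33 and -0.24, where that of all tested genes was between -0.01 and 0. The most abundant other family genes, Jhbp13 (234 to 383 FPKM) and Jhbp14 (170.3 to 322 FPKM), were not called in any comparison. Among White*, Red* and Fab2L, limma and limma-voom called 0 of the 15. In White* against Fab2L, Red* against Fab2L and Red* against White*, 1, 2 and 4 had an unadjusted limma p below 0.05. Of all 11119 genes, 366, 800 and 1037 passed that p as higher and 524, 1415 and 1539 as lower. Without w1118 replicate 1 the counts of lower genes were 3, 4 and 4, all called with it too, and 1 gene was called higher in Red*.

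The genes whose head levels ran most like that of to over the 8 libraries were CR44003 (Pearson r = 0.995 on log2(FPKM + 1)), CG11854 (0.992) and CR43087 (0.992). CR44003 and CR43087 are noncoding RNA genes on other chromosome arms. CR44003 averaged 2.65 FPKM in w1118 and 0.185 to 0.275 in the other lines, and CR43087 1.35 and 0.135 to 0.182. Since the 2 w1118 libraries set these values apart, any gene high in both w1118 libraries has a high r, and no test was made.

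Lsp2, the hexamerin, was also highest in w1118, and its order over lines was w1118, Fab2L, White* and Red*. It stood at 51.0 and 69.0 FPKM in w1118, 24.1 and 19.9 in Fab2L, 17.1 and 13.9 in White* and 11.5 and 13.4 in Red*. No group overlapped its neighbour in that order, but Fab2L, White* and Red* were not called different from each other. Against w1118 the log2 difference was -1.40 in Fab2L (SE 0.17, adjusted p = 0.00419, limma), -1.88 in White* (adjusted p = 0.00118) and -2.17 in Red* (adjusted p = 0.000607). The w1118 mean was 2.73-fold, 3.87-fold and 4.82-fold that of the 3 lines. Without w1118 replicate 1 the log2 differences were -1.61, -2.09 and -2.38, and without replicate 2 they were -1.18, -1.66 and -1.95, all called (adjusted p up to 0.0201). Between Red* and Fab2L the log2 difference was -0.77 (adjusted p = 0.0714), and limma-voom on the whole reads called it (-0.81, adjusted p = 0.0423). The genes most like Lsp2 over the 8 libraries were CR43105 (r = 0.995), CG9331 (0.978) and CG12896 (0.978). CG12896 averaged 25.1 FPKM in w1118, 10.1 in Fab2L, 6.42 in White* and 4.84 in Red*.

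The larval serum proteins Lsp1alpha, Lsp1beta and Lsp1gamma are the other hexamerins, known as storage proteins of larvae. Of the 6 genes of the hexamerin list 3 were tested, Lsp2, Lsp1beta and Lsp1gamma. Lsp1gamma was at 2.48 and 3.17 FPKM in w1118 and at 0.422 to 0.934 in the other 6 libraries, and it was lower in all 3 lines (log2 differences -1.20, -1.28 and -1.16, adjusted p = 0.0160, 0.0130 and 0.0141, limma). It passed the filter only through w1118, where it was high, and was also called with no filter (adjusted p 0.0176 to 0.0202). Lsp1beta was at 11.2 and 14.8 FPKM in w1118 and at 2.69 to 8.40 in the others, and it was called lower only in White* (-1.53, adjusted p = 0.0487). The call of Lsp1beta was lost without w1118 replicate 1 (adjusted p = 0.0826). Lower against w1118 were thus 2, 3 and 2 of the 3 and 0 higher, where 3.12%, 3.10% and 8.07% of all genes were called lower. The count of the list is partly set by the filter, since Lsp1gamma was tested only through w1118.

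Fbp1, whose product takes up hexamerins in larvae, stayed under 1 FPKM in adult heads. It had 0.506 and 0.265 FPKM in w1118, 0.392 and 0.972 in Fab2L, 0.227 and 0.543 in White* and 0.255 and 0.113 in Red*, from 13 to 54 reads a library. The ranges of w1118, Fab2L and White* overlapped, and that of Red* overlapped White*. It was below the filter, and with no filter its F test gave an adjusted p of 0.427. Fbp2, listed with it, had 0.0975 to 1.09 FPKM, with its highest value also in Fab2L replicate 2. The genes most like Fbp1 over the 8 libraries were Sbds (r = 0.935), E(spl)mbeta-HLH (0.931) and CG12868 (0.923), an order that rests on the few reads of Fbp1.

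**Figure D3:**
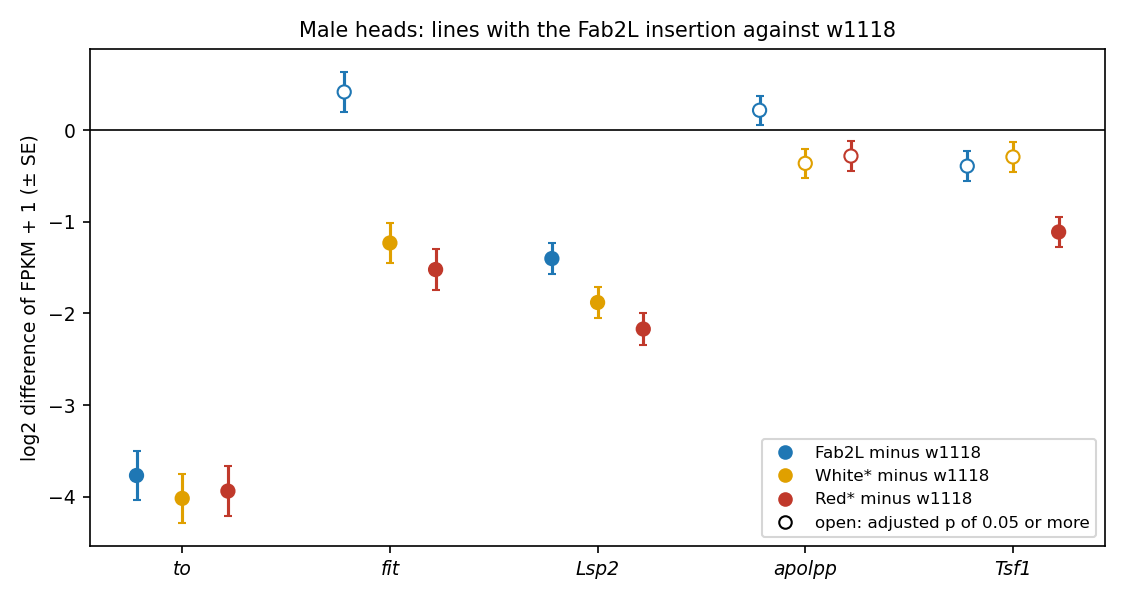
Log2 difference of FPKM + 1 from w1118 (vertical axis, with its standard error from limma) for the 5 tested genes in heads of Fab2L, White* and Red*, with filled points for adjusted p below 0.05. to lies at -3.77 to -4.02 in the 3 lines and Lsp2 at -1.40 to -2.17, while fit is lower in White* and Red*, Tsf1 in Red*, and apolpp in none.

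fit followed another order, with Fab2L at or above w1118 and the lines White* and Red* below both. It stood at 31.2 and 30.2 FPKM in w1118, 41.8 and 41.0 in Fab2L, 13.3 and 11.8 in White* and 7.45 and 13.5 in Red*. White* and Red* overlapped each other and lay below all 4 libraries of w1118 and Fab2L. Against w1118 the log2 difference was -1.23 in White* (SE 0.22, adjusted p = 0.0185, limma) and -1.52 in Red* (adjusted p = 0.00718), and 0.42 in Fab2L (adjusted p = 0.323). Red* was lower than Fab2L by a log2 difference of -1.94 (adjusted p = 0.00848). White* differed from Fab2L by -1.65, with an unadjusted p of 9.45e-05 and an adjusted p of 0.0657. A fit on the White* and Fab2L libraries alone gave an adjusted p of 0.00917. The call against w1118 in White* was lost whenever 1 of the 4 libraries compared was left out (adjusted p 0.0670 to 0.123), and that of Red* against Fab2L without either Fab2L library (0.0632 and 0.0662), with the differences at -1.15 to -1.31 and at -1.93 and -1.95. In the library with high yolk protein RNA, w1118 replicate 1, fit was at 31.2 FPKM, next to 30.2 in replicate 2.

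Obp99b, an odorant binding protein gene of the list of sex-biased head fat body genes, ran in another order than fit. It was at 58.8 and 94.5 FPKM in w1118, 279 and 179 in Fab2L, 300.2 and 241 in White* and 58.5 and 71.9 in Red*. It was higher than in w1118 in Fab2L (log2 difference 1.57, adjusted p = 0.0173, limma) and White* (1.84, adjusted p = 0.00954), and lower in Red* than in Fab2L (-1.77) and White* (-2.04). Without w1118 replicate 1 the call in Fab2L was lost (1.23, adjusted p = 0.0555). The cytochrome P450 gene Cyp4d21, known as sex-specific enzyme 1, was at 140.1 and 257 FPKM in w1118 and at 86.7 to 135 in the other 6, and it was not called. With w1118 replicate 1 left out it was lower in the 3 lines (-1.17, -1.47 and -1.06, adjusted p up to 0.0187). Of the 5 sex determination genes, dsx was called lower in White* than in w1118 (5.79 ± 0.280 against 8.15 ± 0.385 FPKM, -0.43, adjusted p = 0.0319), and 0 others were called in any comparison of heads. That call was lost without w1118 replicate 1. The genes most like fit were CG2233 (r = 0.978), Elal (0.967) and CG4390 (0.967). CG2233 averaged 688 FPKM in w1118, 719 in Fab2L, 458 in White* and 393 in Red*.

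apolpp was the most abundant of the 6 genes in every head library, and no pair of lines was called different in it. It stood at 986 and 1043 FPKM in w1118, 1305 and 1068 in Fab2L, 817 and 762 in White* and 749.7 and 932 in Red*, with 128758 to 419014 reads a library. All 4 libraries of White* and Red* lay below those of w1118 and Fab2L. The widest difference was between White* and Fab2L, at -0.58 log2 (SE 0.16, unadjusted p = 0.00659, adjusted p = 0.375, limma), and the F test over 4 lines gave an adjusted p of 0.113. The genes most like apolpp were CG3829 (r = 0.975), the citrate transporter gene Indy (0.959) and Hf (0.959). CG3829 averaged 21.9 FPKM in w1118, 24.5 in Fab2L, 18.0 in White* and 18.5 in Red*.

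Apoltp was the 1 gene called among the other 7 of lipoprotein transport. It encodes the lipid transfer particle that loads lipoprotein with lipid, and was at 41.2 and 38.7 FPKM in w1118, 53.4 and 54.3 in Fab2L, 37.1 and 34.5 in White* and 36.1 and 37.9 in Red*. It was higher in Fab2L than in w1118 (log2 difference 0.42, adjusted p = 0.0213, limma) and lower in Red* than in Fab2L (-0.53, adjusted p = 0.0226). Mtp, needed for lipoprotein assembly, had 18.3 to 25.2 FPKM and the lipophorin receptors LpR1 and LpR2 had 25.1 to 29.6 and 17.1 to 22.5, and none of the 3 was called in any comparison. The list of 8 had 1 gene higher in Fab2L against w1118 and 1 lower in Red* against Fab2L. Of all genes, 3.51% were called higher in the first comparison and 1.87% lower in the second. In the other 4 comparisons 0 of the list were called, and its medians were -0.26 to 0.09. With the 20 most abundant RNAs removed, 0 were called in Red* against Fab2L and 1 was higher in Red* against w1118.

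Tsf1 was lowest in Red*. It stood at 327 and 379 FPKM in w1118, 297 and 244 in Fab2L, 257 and 325 in White* and 149.7 and 176 in Red*. Both Red* libraries lay below the other 6, while Fab2L and White* overlapped. Red* was lower than w1118 by a log2 difference of -1.11 (SE 0.16, adjusted p = 0.00741, limma) and lower than White* by -0.83 (adjusted p = 0.0403). Against Fab2L the difference was -0.73 (adjusted p = 0.0714), and limma-voom called it (adjusted p = 0.0386). The call against White* was lost under several other settings (adjusted p up to 0.217, without Red* replicate 1, with a difference of -0.71), and removing the 20 most abundant RNAs gave -0.73 (adjusted p = 0.0501). Neuron markers summed to more in both Red* libraries than in the 4 of Fab2L and White*, as given above, and their part in these differences was not tested. The genes most like Tsf1 were Echs1 (r = 0.995), which encodes an enzyme of fatty acid oxidation, Sod1 (0.992), which encodes a superoxide dismutase, and CG33080 (0.986). Sod1 averaged 321 FPKM in w1118, 262 in Fab2L, 284 in White* and 175 in Red*.

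Besides Tsf1, the iron handling genes Zip99C and Tsf3 were called in heads. Of 14 iron handling genes 12 were tested in heads. Against w1118, 1 was higher in Fab2L (Zip99C, an iron transporter, 33.0 and 32.5 against 22.2 and 22.8 FPKM, log2 difference 0.52, adjusted p = 0.00651, limma), 0 were called in White*, and 1 was lower in Red* (Tsf1). Red* had 2 lower than Fab2L, Tsf3 (-0.62) and Zip99C (-0.48), and 1 lower than White* (Tsf1). With the 20 most abundant RNAs removed it had 0 lower than either. Of all tested genes, 3.51% were called higher in Fab2L and 8.07% lower in Red* against w1118. In Red*, 1.87% were called lower than Fab2L and 3.02% lower than White*. The ferritin subunit genes Fer1HCH and Fer2LCH, whose products store iron, had 138 to 174 and 103 to 135 FPKM and were not called.

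The remaining hemolymph proteins split by line. Of 15 tested, 4 were higher in Fab2L than in w1118 and 0 lower: fon, a clotting factor gene (88.1 ± 4.67 against 46.1 ± 0.371 FPKM, log2 difference 0.92, adjusted p = 0.00158, limma), Tig (0.90), the prophenoloxidase gene PPO2 (1.01) and the growth factor gene Idgf1 (1.00). In White*, Tig and PPO2 were higher (0.85 and 1.29) and Glt lower (-0.66). In Red*, 1 was higher (PPO2, 1.42) and 5 were lower, among them Glt (-0.81), nec (-0.72), Col4a1 (-0.59) and vkg (-0.53), the last 2 encoding collagen IV of basement membrane. Against Fab2L, Red* had 5 of 15 lower and 0 higher, led by fon (-1.34, 34.2 ± 2.96 against 88.1 ± 4.67 FPKM) and Tig (-0.93), and fon (-0.70) and Tig (-0.89) were also lower in Red* than in White*. Of all tested genes, 3.51%, 2.57% and 3.75% were called higher than w1118 in Fab2L, White* and Red*. Called lower were 3.12%, 3.10% and 8.07%. In Red*, 1.87% were called lower than Fab2L and 3.02% lower than White*. The median over the 15 was 0.25 in Fab2L and -0.21 in Red* against w1118, and -0.41 in Red* against Fab2L. That of all genes was between -0.01 and 0.01. Against w1118, 1 was higher and 2 were lower in Red* both without w1118 replicate 1, where fon, Col4a1 and vkg lost their calls, and with the 20 most abundant RNAs removed, where Red* against Fab2L had 3 lower. The same held here for the neuron markers of Red* against Fab2L and White*.

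Of 18 tested genes of fat body storage and metabolism, 1 was higher and 2 were lower than w1118 in Fab2L and in White*. Over all tested genes, 3.51% and 2.57% were called higher in these lines and 3.12% and 3.10% lower. Glycogen phosphorylase Glyp was lower in all 3 lines (255 ± 40.1 FPKM in w1118, 158 ± 4.83 in Fab2L, 167 ± 4.53 in White* and 151 ± 1.73 in Red*), Glys, glycogen synthase, was lower in Fab2L (-0.36) and White* (-0.38), and the lipase gene Lip4 was higher in both (1.14 and 0.83). In Red*, where 8.07% of all genes were called lower and 3.75% higher, 5 of the 18 were lower than w1118 and 0 higher. They included Tps1, a trehalose synthesis gene (90.2 ± 19.7 against 219.6 ± 42.8 FPKM, -1.28, adjusted p = 0.00718, limma), tobi, a glucosidase gene (-1.24), AGBE, the glycogen branching enzyme (-0.76), and Glyp (-0.74). Against Fab2L, where 1.87% of all genes were called lower, Red* was also lower in Tps1 (-0.99), Lip4 (-0.75) and ACC, acetyl-CoA carboxylase (-0.39). With the 20 most abundant RNAs removed, 0 of these genes stayed called. The calls of Glys were lost without w1118 replicate 1 (adjusted p = 0.0935 in White*).

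**Figure D4:**
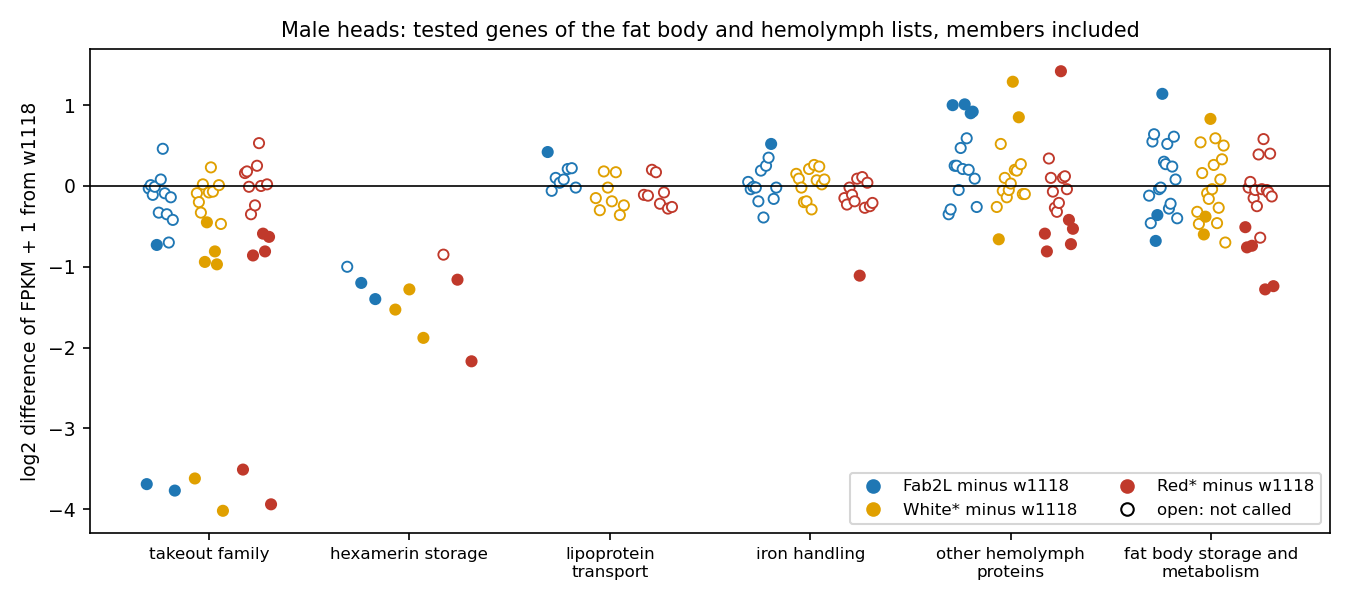
Log2 difference of FPKM + 1 from w1118 for every tested gene of 6 lists in heads, the members included, with a column of points each for Fab2L, White* and Red* and filled points for adjusted p below 0.05. The takeout family and the hexamerins hold only lower calls, to and CG11854 lie below -3.5, and the hemolymph proteins hold 4 higher calls in Fab2L and 5 lower calls in Red*.

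Among hormone genes that act on fat body, limma on all head libraries called only genes of the insulin and adipokinetic list. Of 12 juvenile hormone and ecdysone genes, among them the juvenile hormone receptors Met and gce, 0 were called in the 6 comparisons of heads, and their medians were 0.01 to 0.11. At an unadjusted limma p below 0.05, 3, 2 and 5 of them passed against w1118 in Fab2L, White* and Red*. Of all 11119 genes, 1141, 1012 and 1291 passed that p as higher and 1225, 1143 and 1899 as lower. With limma-voom 0 of the list were called there and 1 was lower in Red* against White*, where 500 of 11117 genes were lower. Without w1118 replicate 1, the medians of the 12 against w1118 were 0.00, 0.07 and 0.23 in Fab2L, White* and Red*. The log2 differences of Jhe were then 1.94, 1.31 and 1.73, from 1.25, 0.62 and 1.04 with all libraries. Those of Jheh1 were 0.69, 0.68 and 0.62, from 0.51, 0.49 and 0.43. Of 10 insulin and adipokinetic genes, upd2, a fat body signal to the brain, was higher than in w1118 in Fab2L (1.92 ± 0.566 against 0.0796 ± 0.00325 FPKM, log2 difference 1.42, adjusted p = 0.0105, limma) and White* (1.23), and lower in Red* than in Fab2L (-1.48) and White* (-1.29). CCHa2, a peptide hormone gene, was lower than w1118 in all 3 lines (-0.73, -0.95 and -0.95), from 151 and 152 FPKM in w1118 to 68.4 to 92.2 in the others. chico, the insulin receptor substrate gene, was higher in Red* (0.35, adjusted p = 0.0444, limma). Against w1118, 1 of the 10 was thus higher and 1 lower in each line. Of all tested genes, 3.51%, 2.57% and 3.75% were called higher than w1118 in Fab2L, White* and Red*. Called lower were 3.12%, 3.10% and 8.07%. In Red*, 1.87% were called lower than Fab2L and 3.02% lower than White*. Without w1118 replicate 1, the calls of CCHa2 in Fab2L (adjusted p = 0.0510), upd2 in White* (0.0641) and chico in Red* (0.0541) were lost.

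Among themselves the 5 tested genes fell into different orders over the 8 head libraries. to and Lsp2 ran alike (r = 0.93 on log2(FPKM + 1)), as did fit and apolpp (0.91), while to had r = 0.43 with fit and 0.27 with apolpp. Tsf1 had r = 0.40 with apolpp and 0.75 with Lsp2. These are descriptions over 8 points from 4 lines, and all genes of a library share its depth and its dissection. By level per length, the order of the line means in w1118 was apolpp (1014 ± 40.7 FPKM), to (466 ± 153), Tsf1 (353 ± 36.8), Lsp2 (60.0 ± 12.8), fit (30.7 ± 0.719) and Fbp1 (0.385 ± 0.170). to and Tsf1 overlapped there. In the 3 other lines Tsf1 was second, and to lay within 20.6 to 35.4 FPKM, below fit in Fab2L and above it in White* and Red*.

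In unfertilized eggs the 6 genes were near the limit of detection, apart from apolpp. The FPKM of heads and of eggs were scaled separately by the authors, so levels are set side by side here and no test was made between tissues. to had 0 to 5 reads a library in eggs, Lsp2 0 to 2, Fbp1 1 to 18, fit 0 to 25 and Tsf1 0 to 46, against 286 to 1433 for apolpp. In FPKM, to reached at most 0.142 in eggs against 20.6 to 574 in heads, Lsp2 0.0229 against 11.5 to 69.0, Tsf1 0.470 against 149.7 to 379, and apolpp 3.46 against 749.7 to 1305. Both w1118 egg libraries had 0 reads of to and both Fab2L libraries had 5, at least 3.85-fold higher with w1118 set at 3 reads over both libraries. A count of 0 allows up to 3 reads, and such floors cover counting error only. White* eggs had 0 and 3 reads of to and Red* eggs 4 and 3. Fbp1 was highest in w1118 eggs, at 0.157 and 0.0761 FPKM (18 and 9 reads), and at 0.0103 to 0.0541 FPKM (1 to 6 reads) in the others, with no overlap. It was below the filter, and with no filter it was not called in any comparison (adjusted p 0.0599 or more).

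Of the 6 genes, fit and apolpp passed the filter in eggs and were tested among 6682 genes with limma, fit only through its 2 Red* libraries, where it was high. Its calls with the filter are thus those of a gene let in by Red*, and the fit with no filter, over 12844 genes, is given beside them. Both genes differed among the 4 lines by the F test, where 64.1% of all tested genes were called (adjusted p = 0.000506 for fit and 0.00135 for apolpp, and 0.00254 and 0.00975 with no filter). With no filter the F test also called Tsf1 (adjusted p = 0.00555) and to (adjusted p = 0.0371). In Fab2L against w1118, 1 of the 2 was higher (apolpp), where 14.6% of all genes were called higher and 14.4% lower. In White* against w1118, 1 was higher (apolpp), where 18.8% were called higher and 19.0% lower. In Red* against w1118 both were higher, where 22.7% were called higher and 21.8% lower. White* had fit lower than Fab2L, where 6.57% of genes were called higher and 8.87% lower. Red* had both higher than Fab2L, where 12.6% were called higher and 11.1% lower, and both higher than White*, where 21.5% were called higher and 22.7% lower. The backgrounds are high in eggs, so a call of these 2 genes is 1 among many. With the 20 most abundant RNAs removed, the balance over all genes shifted to 3432 higher and 488 lower in Red* against w1118 (from 1516 and 1454), 2055 and 223 in Red* against Fab2L (from 843 and 743), 2904 and 424 in Red* against White* (from 1437 and 1516), 1248 and 579 in Fab2L against w1118 (from 978 and 965) and 170 and 555 in White* against Fab2L (from 439 and 593).

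apolpp in eggs stood at 0.734 and 0.917 FPKM in w1118 (286 and 368 reads), 1.80 and 1.95 in Fab2L, 1.49 and 1.42 in White* and 3.46 and 2.44 in Red* (1433 and 919 reads). The order of lines was Red*, Fab2L, White* and w1118, with no overlap between neighbours. The log2 difference of FPKM + 1 from w1118 was 1.10 in Red* (SE 0.12, adjusted p = 0.000377, limma), 0.66 in Fab2L (adjusted p = 0.00590) and 0.43 in White* (adjusted p = 0.0279), and the Red* mean was 3.57-fold that of w1118. White* against Fab2L was not called (-0.23, adjusted p = 0.231). Red* was higher than White* (0.67, adjusted p = 0.00482) and than Fab2L (0.44, adjusted p = 0.0386). The call of Red* against Fab2L was lost without any 1 library except Red* replicate 2 (0.26 and adjusted p = 0.118 without Red* replicate 1). That of White* against w1118 was lost without any 1 of the 4 libraries compared, with adjusted p from 0.050 to 0.150. Other lipoprotein genes were expressed in eggs at higher levels than apolpp. Among them were the receptor genes LpR1 (5.50 to 7.47 FPKM) and LpR2 (7.31 to 9.09) and the assembly gene Mtp (20.6 to 26.1). Zyx, which overlaps apolpp, was at 23.4 and 22.2 FPKM in w1118 eggs and at 23.6 to 34.9 in the other lines. It had more reads than apolpp in every egg library, and its part in the egg values of apolpp was not tested.

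fit in eggs was detected mainly in Red*. It had 1.34 and 1.47 FPKM in Red* (25 and 25 reads), 0.312 and 0.469 in Fab2L (5 and 7 reads), 0 and 0.221 in w1118 (0 and 4 reads), and 0 in both White* libraries. Both Red* libraries lay above the other 6, and White* lay at or below the rest. Red* was higher than w1118 (log2 difference of FPKM + 1 of 1.12, adjusted p = 0.000334, limma), than Fab2L (0.79, adjusted p = 0.00636) and than White* (1.26, adjusted p = 0.000632). With no filter these 3 were called as well (adjusted p = 0.00160, 0.0145 and 0.00355). At these levels the log2 difference depends on the added 1. In reads, with White* set at 3 over both libraries, Red* was at least 15.6-fold higher. White* was lower than Fab2L (-0.47, adjusted p = 0.0407), a call that rests on 12 reads against 0 and was lost without any 1 of those 4 libraries (adjusted p up to 0.211) and with no filter (0.0628). Tsf1, which was below the filter, was also highest in Red* eggs, at 0.458 and 0.470 FPKM (46 and 43 reads) against 0 to 0.175 FPKM (0 to 17 reads) in the other 6. With no filter it was called higher in Red* than in w1118 (0.37, adjusted p = 0.00707, limma), Fab2L (0.41) and White* (0.53), and to was then called in Fab2L against w1118 (0.19 higher, adjusted p = 0.0218), from 5 reads a library against 0.

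**Figure D5:**
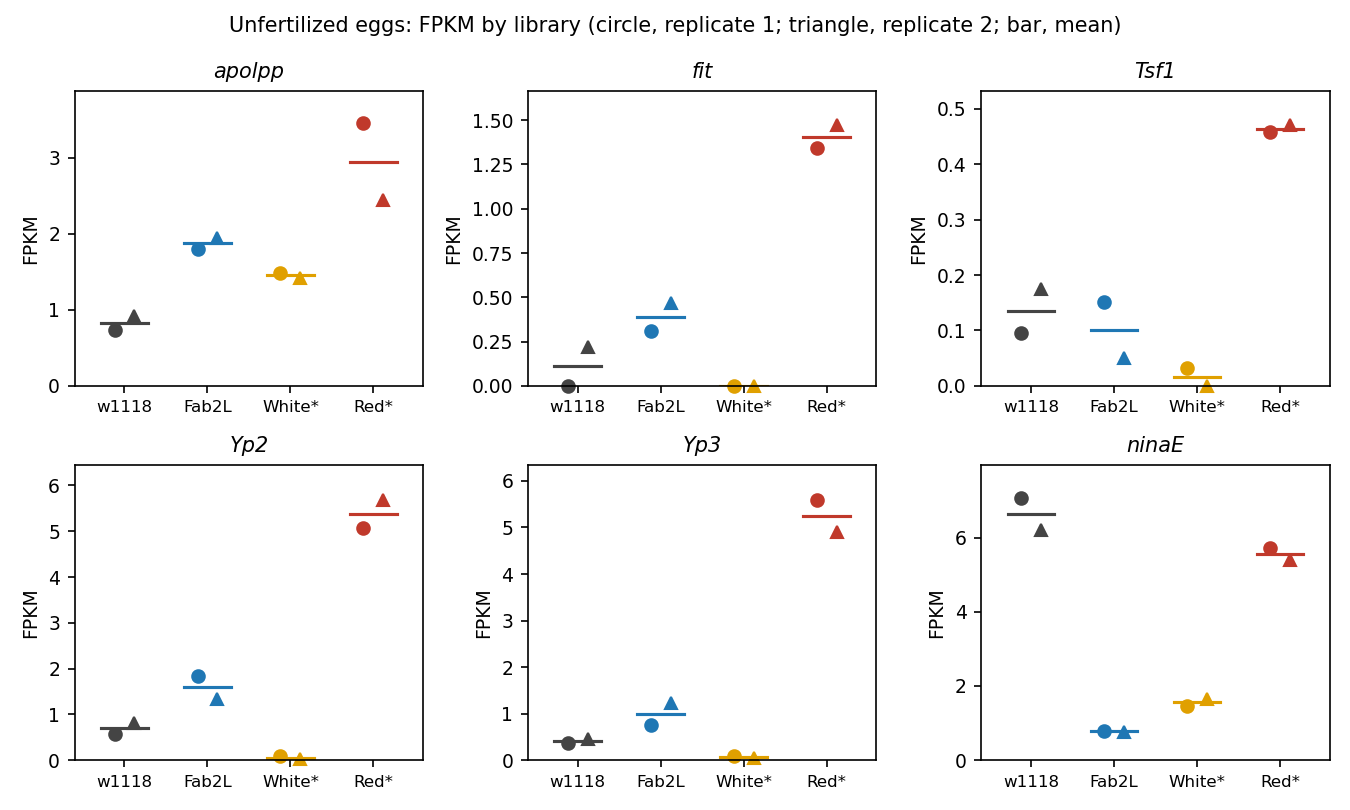
FPKM in the 8 egg libraries of apolpp, fit, Tsf1, the yolk protein genes Yp2 and Yp3 and the rhodopsin gene ninaE, 1 panel a gene with its own axis from 0 (circle, replicate 1; triangle, replicate 2; bar, mean of 2). apolpp, fit, Tsf1, Yp2 and Yp3 are highest in both Red* libraries, and ninaE is high in w1118 and Red*.

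The yolk protein genes, made in fat body and ovary, were also highest in Red* eggs. Yp2 was at 5.06 and 5.69 FPKM in Red*, 1.84 and 1.34 in Fab2L, 0.579 and 0.815 in w1118 and 0.0950 and 0.0203 in White*. Yp1, Yp2 and Yp3 were higher in Red* than in w1118 (log2 differences 1.13, 1.91 and 2.14, adjusted p = 0.000210, 2.02e-05 and 1.30e-05, limma), and also than in Fab2L and White*. Yp1 passed the filter only through Red*, and with no filter it was also called in these 3 comparisons (adjusted p up to 0.00870). The list of ovary and eggshell markers, which holds these 3, summed to 11.9 to 12.2 FPKM in Red* eggs, 3.61 to 4.20 in Fab2L, 1.21 to 1.65 in w1118 and 0.0731 to 0.256 in White*. The sum follows the 3 yolk protein genes. Of the other 4, Vm26Ab and Vm34Ca were at 0 in all 8, and the eggshell genes Cp36 and Cp38 were highest in Fab2L (0.831 and 0.447, and 0.371 and 0.313 FPKM), against 0.0764 and 0.0559, and 0.0228 and 0.050, in Red*. Photoreceptor markers were found in eggs as well. They summed to 25.3 to 26.0 FPKM in Red*, 24.4 to 25.0 in w1118, 16.1 to 17.6 in Fab2L and 16.7 to 17.7 in White*. norpA alone was at 13.1 to 15.9 FPKM in every egg library and made up most of the sums of Fab2L and White*. Each other marker was lower in all Fab2L and White* libraries than in all of w1118 and Red*. ninaE, the main rhodopsin, was at 7.06 and 6.20 FPKM in w1118 eggs, where fit was at 0 and 0.221, and at 5.73 and 5.41 in Red* eggs, where fit was at 1.34 and 1.47. The part of RNA from other tissue in the egg values was not tested.

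In sequence, none of the listed variants specific to a line lay near the 6 genes. The deposited lists hold 2425 variants specific to White* and 210 specific to Red* (SNPs, small deletions and small insertions on dm6). 0 lay within any of the 6 genes or within 2 kb of one, on either side, and 0 within 10 kb. 2397 of the White* variants are on 3R, where the nearest to to is 212735 bp away and the nearest to fit 3056587 bp. The closest of all is a Red* variant 19063 bp from Fbp1. No list compares w1118 with the lines that carry the insertion.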

How the data were processed

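Long RNA of 8 male head and 8 unfertilized egg libraries was analysed (4 lines, 2 libraries each). The authors deposited FPKM per gene; STAR 2.5 and DESeq2 with build dm6 are named per the submitters' processing notes, and the counting tool and annotation are not given in the sources used here. Lists of variants specific to White* or Red* were deposited by the authors as positions. Members and gene lists were chosen with earlier results of these data known. Whole reads were worked back as the shortest gene length that makes every value of a gene whole within 0.001 (99.98% of 194923 values; 0 of 1000 genes with randomly moved values), and gave the depth, 13491839 to 36603385 reads in heads and 27823551 to 35638108 in eggs. The scale in the FPKM equals median ratio size factors within each tissue but not across both, so no test of heads against eggs was made, although one was planned. Replicates differed by a chi-square per degree of freedom of 11.5 to 55.2, so none is a copy. limma 3.58.1 (R 4.3.3) with a trended prior was run on log2(FPKM + 1), all 4 lines of a tissue in 1 fit, for genes above 1 FPKM in at least 2 of 8 libraries (11119 in heads, 6682 in eggs), with Benjamini-Hochberg adjustment over all. This scale understates differences of low genes. The fit was tested on simulated data. Genes named are the 6 members, up to 4 called genes of each list and comparison with the largest log2 difference, the 3 genes most like each member, and annotated neighbours; uncalled genes of a list and single genes of the marker lists (tim, Clk, ninaE and the like) were named after their values were seen. FASN1, InR and PPO1 of the lists found no match. Alternatives were another pseudocount, no filter, rescaling, removal of the 20 most abundant RNAs, limma-voom on whole reads, a replicate block, only 2 lines, and each library left out. Sequences of the genes were not used here.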

Additional observations from a re-analysis of the deposited data

Results flagged for a closer look

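A fit over the 16 libraries with a tissue by line term, chosen after seeing the data, asked for fit and apolpp whether a line difference was the same in heads and in eggs. It compares differences within each tissue, so the separate scaling of the tissues drops out except through the added 1 FPKM, which weighs more in eggs. The values are the log2 difference in heads minus that in eggs, with limma and adjustment over 11405 genes. For fit, Red* against w1118 was lower in heads (-1.52) and higher in eggs (1.12), and the difference was -2.64 (adjusted p = 6.10e-05). For fit, Red* against Fab2L gave -2.73 (-1.94 in heads and 0.79 in eggs, adjusted p = 0.000197), Red* against White* -1.56 (adjusted p = 0.00197), White* against w1118 -1.08 (adjusted p = 0.0200) and White* against Fab2L -1.17 (adjusted p = 0.0460). For apolpp, Red* against w1118 gave -1.38 (-0.28 in heads and 1.10 in eggs, adjusted p = 0.000469) and Red* against Fab2L -0.94 (adjusted p = 0.0103). White* against w1118 gave -0.79 (adjusted p = 0.0179) and Red* against White* -0.59 (adjusted p = 0.0416). Fab2L against w1118 was not called for fit (0.09, adjusted p = 0.875, limma) or apolpp (-0.44, adjusted p = 0.168). Nor was White* against Fab2L for apolpp (-0.35, adjusted p = 0.373). The share of all 11405 genes called in each comparison is not given here, so these calls have no background beside them. These comparisons share libraries, and fit in eggs rests on 0 to 25 reads a library and is above 1 FPKM in eggs only in Red*. In heads it is above 1 FPKM in all 8 libraries, so it passed the filter of this fit without its eggs. For apolpp, the part of reads from the overlapping gene Zyx was not tested.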

How the results depend on the processing

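The calls of to and Lsp2 against w1118 in heads kept their direction and passed the threshold under every alternative run. Of 11 calls of members in heads, 73 of 77 values under other settings and 77 of 88 with 1 library left out stayed called, and of 9 in eggs 67 of 72 and 57 of 72. The number of members called changed as follows. In heads, White* against Fab2L gave 1 with only the 2 lines fitted, Red* against Fab2L 3 by limma-voom, and Red* against White* 0 with no filter, with the 20 most abundant RNAs removed, with the replicate block and with only the 2 lines. In eggs, Fab2L against w1118 gave 2 with no filter and by limma-voom. White* against w1118 and White* against Fab2L gave 0 with no filter. Red* against w1118 and Red* against White* called Tsf1 besides fit and apolpp with no filter. Red* against Fab2L then called fit and Tsf1 and no longer apolpp. It gave 1 with pseudocount 0.1 and with only the 2 lines. The F test gave 4 with no filter (fit, apolpp, Tsf1 and to). With 1 library left out, heads gave 2 to 3 members for Fab2L and for White* against w1118, 4 to 4 for Red* against w1118, 0 to 1 for White* and for Red* against Fab2L, 0 to 2 for Red* against White* and 3 to 4 for the F test. Eggs gave 1 to 2, 0 to 1 and 2 to 2 against w1118, 0 to 1 and 1 to 2 against Fab2L, 2 to 2 for Red* against White* and 2 to 2 for the F test. Some differences that were not called with all libraries turned sign with a library left out. For to the ranges were -0.62 to 0.13 (White* against Fab2L) and -0.30 to 0.45 (Red* against White*). For Tsf1 the range was -0.07 to 0.27 (White* against Fab2L, also -0.04). In Red* against White*, fit ranged from -0.68 (without Red* replicate 2) to 0.09, and apolpp from -0.07 to 0.24. The cause was not tested. Over all genes, leaving out 1 library moved the calls in heads to 143 to 381 higher and 131 to 339 lower (Fab2L against w1118), 101 to 270 and 143 to 342 (White* against w1118), 111 to 303 and 274 to 833 (Red* against w1118) 6 to 57 and 27 to 299 (Red* against Fab2L) and 2 to 9 and 0 to 7 (White* against Fab2L), the lowest of the first 4 where 1 of the compared libraries was left out. In eggs they were 552 to 1043 and 595 to 1090, 725 to 1396 and 727 to 1357, and 1000 to 1435 and 860 to 1492 for Fab2L, White* and Red* against w1118, 27 to 613 and 39 to 658 for White* and 219 to 735 and 130 to 940 for Red* against Fab2L, and 670 to 1381 and 449 to 1422 for Red* against White*. Counts of list genes under other scalings and without w1118 replicate 1 were added after seeing the data. Removing the 20 most abundant RNAs moved the median of all genes by up to 0.12 log2 in heads and 0.22 in eggs, both for Red*. Replicate numbers did not pair the libraries (correlations of deviations -0.18 to 0.23 in heads and -0.20 to 0.36 in eggs), and the replicate block changed no call but that of Tsf1 in Red* against White* (adjusted p = 0.0539). Heads against eggs and its alternatives were not run. In eggs 4 members were below the filter, with 0 to 46 reads a library.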
